A study of Mus musculus with 2 samples.

Results

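The cytosolic ribosomal protein genes were taken as every gene whose symbol is Rpl or Rps with a number and the usual endings, one of the stalk genes Rplp0 to Rplp2, or Rpsa. Pseudogenes with symbols in -ps and the Rps6k kinases were left out, and no level was used in the choice. The rule found 88 of the 43346 Ensembl genes in the deposited tables. By textbook nomenclature, 77 of them encode the standard proteins (46 of the large and 31 of the small subunit). A further 7 are paralogs, and 4 are other retrocopies (Rps3a2, Rps3a3, Rps12l1 and Rpl6l). Fau and Rpl36al also encode ribosomal proteins but lie outside the rule.

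The study sequenced polyadenylated RNA of mouse megakaryocytes, the marrow and fetal liver cells that release platelets, in 2 paired-end libraries of 1 group. The cells were primary cells from embryos of day 14.5, males and females pooled, of a health state labelled as unknown. The labels name no genotype, strain or treatment, and cite the same biosample and the same donor for replicate 2 and replicate 1, so the spread between the libraries may be technical. No condition was compared. Ratios below set replicate 2 over replicate 1, with 1 library on each side and no replicate check.

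A ribosome is built from ribosomal RNA and one copy of nearly each of these proteins, with several copies of the stalk proteins, so the proteins are needed in nearly equal amounts. In mammals their mRNAs typically begin with a C in an unbroken run of pyrimidines, the 5′ terminal oligopyrimidine motif, through which mTOR signalling and the RNA-binding protein LARP1 control their translation. In human Diamond-Blackfan anaemia, loss of 1 allele of a ribosomal protein gene impairs red cell formation, in which translation of the GATA1 mRNA is reduced.

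Start sites in the RefSeq promoter table (GRCm38.p6) could be matched for 57 of the 77 standard genes. Of these, 23 (40.4%) had a run of at least 7 pyrimidines within 5 bases of the start, against 14.1% of all 32851 start windows in the table. A C stood at the annotated first base in 33.3% of the standard genes and in 16.3% of all windows. The windows below run from 10 bases before to 20 bases after the start, on the strand of the gene. They show the run, in capitals, for 6 highly expressed members and for Rps15a, which had 0 counts in replicate 2, and then 4 members without such a run, of which Rps15 and Rpl41 are highly expressed and Rpl22 and Rpl37 of low level. Coordinates are those of GRCm38.
Rpl18, chr7:45718061-45718090, plus strand: ctcgcaggccgCTCTTTCCCCgcccactcc
Rpl28, chr7:4792955-4792984, plus strand: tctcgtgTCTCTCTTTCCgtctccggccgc
Rplp2, chr7:141447641-141447670, plus strand: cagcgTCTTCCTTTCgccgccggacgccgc
Rps26, chr10:128626487-128626516, minus strand: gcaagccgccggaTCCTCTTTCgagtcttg
Rpl27a, chr7:109519185-109519214, plus strand: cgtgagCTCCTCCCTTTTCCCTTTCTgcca
Rpl13a, chr7:45128726-45128755, minus strand: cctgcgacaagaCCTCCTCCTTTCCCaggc
Rps15a, chr7:118116128-118116157, minus strand: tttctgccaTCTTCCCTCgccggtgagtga
Rps15, chr10:80292421-80292450, plus strand: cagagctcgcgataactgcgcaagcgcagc
Rpl41, chr10:128549149-128549178, minus strand: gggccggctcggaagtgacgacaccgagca
Rpl22, chr4:152325716-152325745, plus strand: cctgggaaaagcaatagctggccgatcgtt
Rpl37, chr15:5116603-5116632, plus strand: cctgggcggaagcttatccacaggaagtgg
A match describes these letters only, and annotated starts can lie some bases from the start used in the cells.

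Members with and without the run overlapped widely in level. The 23 members with a run had medians of 125 TPM in replicate 2, against 1047 TPM in replicate 1, and the 34 without one had 113 TPM in replicate 2, against 518 TPM in replicate 1. TPM is a level divided by transcript length and scaled so that every library has the same sum. Six-letter motifs were searched on both strands of the 300 bases from 250 before to 50 after the start. CCGGAA, the ETS core, stood in 52.6% of the standard windows and 14.9% of all windows, and GGGCGG, the GC box, in 59.6% and 35.7%. ATGGCG, the YY1 core, stood in 26.3% and 8.93%. The TATA box motif, spelled TATAAA, stood in 8.77% of the standard windows and 13.6% of all windows. CACGTG, known as an E box, stood in 8.77% and 7.15%. The motif bound by GATA factors, spelled AGATAA, stood in 5.26% and 11.2%. The ETS core was held by 30 standard members, whose medians were 106 TPM in replicate 2, against 528 TPM in replicate 1, and lacked by 27, at 173 TPM in replicate 2, against 1293 TPM in replicate 1.

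The libraries differed in depth, with a total of 2275922 expected counts in replicate 2 and 42099216 in replicate 1. Expected counts are the authors' estimates of fragments per gene, which divide fragments shared between genes. All 10 megakaryocyte markers listed for the check (among them Itga2b, Gp9 and Pf4) had at least 1 TPM in both libraries. They summed to 23330.7 TPM in replicate 2, against 16073.5 TPM in replicate 1. The 8 erythroid markers summed to 13382.5 TPM in replicate 2, against 5364 TPM in replicate 1, mostly from the globin Hba-a1. The 10 granulocyte markers summed to 150 TPM in replicate 2, against 862 TPM in replicate 1. The 10 macrophage markers summed to 229 TPM in replicate 2, against 874 TPM in replicate 1, with Timd4 and Cd163 at 0 in both libraries. Hepatocyte markers summed to 1.82 TPM in replicate 2, against 1.68 TPM in replicate 1 and lymphoid markers to 1.25 TPM in replicate 2, against 1.49 TPM in replicate 1, with Alb, Ttr and Cd3e at 0. The part of these other cells in the differences between the libraries was not tested. Fewer cells of a type and less RNA per cell cannot be told apart in bulk RNA.

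The 88 genes together took 84008.8 TPM in replicate 2, against 189905.8 TPM in replicate 1, which is 8.40% of all TPM in replicate 2 and 19.0% in replicate 1. Their mean was 136957 ± 74880 TPM (SD, n = 2). By expected counts, their share was 3.29% in replicate 2 (exact 95% binomial interval 3.27 to 3.32) and 8.19% in replicate 1 (8.18 to 8.20). Intervals here and below cover counting error only. In replicate 2, 13 members stood among the 100 genes of highest TPM, and in replicate 1, 29 did.

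The transcripts were far from equal in level, although their proteins enter the ribosome in nearly equal numbers. Among the 77 standard genes the median was 173 TPM in replicate 2, against 655 TPM in replicate 1. The middle 50% of genes ran from 36.5 to 866 TPM in replicate 2 and from 147 to 2806 TPM in replicate 1. The 10 highest members held 69.7% of all member TPM in replicate 2 and 59.0% in replicate 1. The order of genes was alike in both libraries, with a Spearman rho of 0.920 and a Pearson r of 0.914 on log2(TPM + 1) across the 77 genes, which share libraries and annotation and are not independent. Of the 20 highest in each library, 17 were shared. Large subunit genes had medians of 136 TPM in replicate 2, against 462 TPM in replicate 1, and small subunit genes of 173 TPM in replicate 2, against 1047 TPM in replicate 1.

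**Figure D1:**
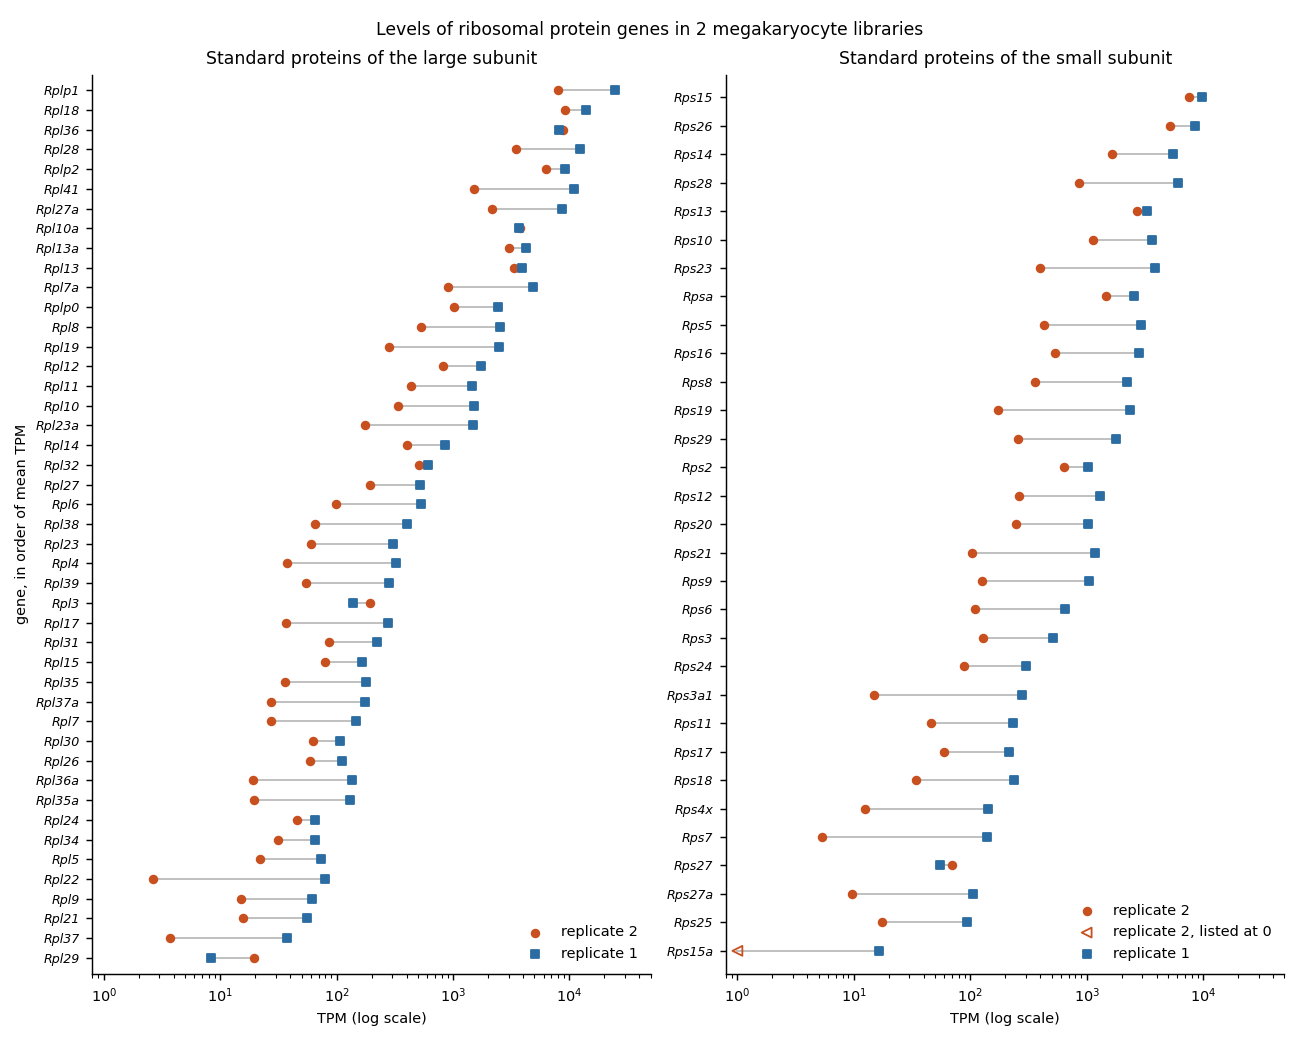
TPM (log axis) of 76 of the 77 standard ribosomal protein genes, large subunit on the left and small subunit on the right, each in order of mean TPM, with replicate 2 as circles, replicate 1 as squares and a line joining the libraries. Levels ran from under 10 TPM to over 1000 TPM in each library, most circles lie left of their squares, and Rps15a, listed at 0 in replicate 2, is drawn as an open triangle at 1 TPM.

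The stalk of the large subunit, which recruits the elongation factors, held the member of highest mean level. Rplp1, an acidic stalk protein (ENSMUSG00000007892.7, chromosome 9, 61913284 to 61914542, minus strand, GRCm38), had 7946 TPM in replicate 2, against 24615.9 TPM in replicate 1. Rplp2, its partner in the stalk dimer, had 6311 TPM in replicate 2, against 9184 TPM in replicate 1. Rplp0, to which these dimers are anchored, was several times lower, at 1026 TPM in replicate 2, against 2446 TPM in replicate 1. Rpl12, at the base of the stalk, had 818 TPM in replicate 2, against 1753 TPM in replicate 1. The same order of Rplp1, Rplp2, Rplp0 and Rpl12 stood in both libraries.

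Of the 10 highest members by mean, 8 belonged to the large subunit. Rpl18 had 9178 TPM in replicate 2, the highest member there, against 13943.2 TPM in replicate 1, and its mean was 11560.7 ± 3369 TPM (SD, n = 2). Rpl36 had 8801 TPM in replicate 2, against 8078 TPM in replicate 1, which is closer than for any other of the 5 highest members. Rpl28, a protein that budding yeast lacks, had 3472 TPM in replicate 2, against 12362 TPM in replicate 1. Rpl41 encodes the shortest ribosomal protein, from a coding sequence of 75 bases, and had 1520 TPM in replicate 2, against 10872.9 TPM in replicate 1. Rpl27a had 2171 TPM in replicate 2, against 8585 TPM in replicate 1. Rpl10a differed least of the 10 highest members, at 3767 TPM in replicate 2, against 3659 TPM in replicate 1. Rpl13a, which in human monocytes also joins a complex that represses translation, had 3033 TPM in replicate 2, against 4274 TPM in replicate 1. With means and SD over n = 2, neighbours in this order lay within each other's spread: Rpl28 averaged 7917 ± 6286 TPM and Rpl27a 5378 ± 4536 TPM.

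In the small subunit the 3 highest members by mean, each gene taken alone, lie on the path of the mRNA. With the near-identical copies described below added, Rps10 averaged 4186 TPM, above Rps14 at 3620 TPM. Rps15, close to the decoding site, had 7571 TPM in replicate 2, against 9753 TPM in replicate 1. Rps26, at the exit of the mRNA channel, had 5195 TPM in replicate 2, against 8566 TPM in replicate 1. Rps14 had 1661 TPM in replicate 2, against 5507 TPM in replicate 1. Rpsa, on the back of the subunit, had 1458 TPM in replicate 2, against 2568 TPM in replicate 1. The other channel members were lower than these in replicate 2. Rps23, at the decoding centre, had 400 TPM in replicate 2, against 3833 TPM in replicate 1. Rps2, at the channel entry, had 639 TPM in replicate 2, against 1023 TPM in replicate 1. Rps3, also at the entry, had 129 TPM in replicate 2, against 515 TPM in replicate 1. Outside the channel, Rps6, the target of the S6 kinases, had 109 TPM in replicate 2, against 655 TPM in replicate 1.

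The proteins that line the exit tunnel and those that carry 5S ribosomal RNA were of middle to low level, except Rpl11. Of the tunnel proteins, Rpl4 had 37.6 TPM in replicate 2, against 324 TPM in replicate 1. Rpl17 had 36.5 TPM in replicate 2, against 277 TPM in replicate 1. Rpl39 had 54.2 TPM in replicate 2, against 284 TPM in replicate 1. These 3 genes lay close together in each library. Rpl11 and Rpl5 form a particle with 5S RNA that binds Mdm2 when free of the ribosome. They were unequal, Rpl11 at 434 TPM in replicate 2, against 1471 TPM in replicate 1, and Rpl5 at 21.9 TPM in replicate 2, against 72.8 TPM in replicate 1. With the near-identical copies described below added, Rpl5 had 27.2 TPM in replicate 2, against 146 TPM in replicate 1. Rpl11 then had 438 TPM in replicate 2, against 1512 TPM in replicate 1. Rps27a, which is made as a fusion with ubiquitin, had 9.58 TPM in replicate 2, against 106 TPM in replicate 1.

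The genes mutated in human Diamond-Blackfan anaemia were spread over the whole range. The 20 listed genes had medians of 87.7 TPM in replicate 2, against 261 TPM in replicate 1, and all but Rps15a were at 1 TPM or more in both libraries. Rpl18 and Rps26, given above, and Rps28, at 866 TPM in replicate 2, against 6069 TPM in replicate 1, were the 3 highest by mean. Rps19, the gene most often mutated in patients, had 173 TPM in replicate 2, against 2380 TPM in replicate 1. The 3 lowest were Rps15a, Rpl5 and Rps27.

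At the low end, the standard member of lowest mean was Rps15a, a small subunit protein, with 0 TPM in replicate 2, against 16.4 TPM (763 counts) in replicate 1. A count of 0 allows up to 3 counts in replicate 2. Rpl29 had 19.6 TPM in replicate 2, against 8.38 TPM in replicate 1. Rpl37 had 3.74 TPM in replicate 2, against 37.1 TPM in replicate 1. Rpl22 had 2.66 TPM in replicate 2, against 79.6 TPM in replicate 1. In replicate 2, Rpl22 rested on 4 counts and Rpl37 on 5 counts. Of all 88 members, 80 in replicate 2 and 83 in replicate 1 reached 1 TPM. At 1000 TPM or more there were 18 in replicate 2 and 37 in replicate 1.

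Some of these low levels stood beside near-identical retrocopies that held counts. A blastn search of each member's main coding transcript against all GENCODE M21 transcripts, at 90% identity or more over 50% or more of its length, found 602 annotated copies of 66 members. Of these, 583 are processed pseudogenes, which arise when an mRNA is copied back into the genome and so lack introns. The main coding transcript is the protein-coding one of highest mean TPM. In replicate 2 the copies held 16.3% of the counts of members and copies together, and in replicate 1 8.63%. In 5 standard genes in replicate 2 and 6 in replicate 1, more than 50% of such counts lay in copies. The 257 pseudogenes with a member's symbol followed by -ps held 4310 TPM in replicate 2, against 6295 TPM in replicate 1. Whether these fragments came from the gene or from a transcribed copy was not tested.

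Rpl29 was the extreme case. The gene (ENSMUSG00000048758.9, chromosome 9, 106429454 to 106431568, plus strand) has 42 such copies, which held 99.8% of the family's counts in both libraries. Its copies Gm8210 on chromosome 1 and Gm13841 on chromosome 5 were each given 4885 counts in replicate 2 and 45085.1 counts in replicate 1, that is 7836 TPM in replicate 2, against 3303 TPM in replicate 1. The 2 copies were thus given the same estimate. The deposited posterior SD of the count, the quantifier's own measure of how freely fragments can move between genes, was 2535 counts in replicate 2 and 26659.6 counts in replicate 1 for Gm8210. With its copies added, Rpl29 had 15736 TPM in replicate 2, against 6634 TPM in replicate 1, and ranked 3 among the 88 members by mean with copies added and 77 alone.

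The coding sequence of Rpl29 differs from either copy at 3 of 480 aligned bases, that of Rpl23a from Gm10335 at 1 of 468, and that of Rps10 from Rps10-ps2 at 5 of 495. Stretches of 60 coding bases are given here for the gene and for the copy, from GENCODE M21 transcripts on GRCm38, to show how few bases can tell them apart. Capitals mark the bases that differ.
Rpl29, chromosome 9: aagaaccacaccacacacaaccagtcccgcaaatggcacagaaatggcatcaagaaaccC
Gm13841, chromosome 5: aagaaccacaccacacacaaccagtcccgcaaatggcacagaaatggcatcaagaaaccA
Rpl23a, chromosome 11: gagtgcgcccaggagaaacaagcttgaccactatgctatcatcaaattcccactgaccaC
Gm10335, chromosome 10: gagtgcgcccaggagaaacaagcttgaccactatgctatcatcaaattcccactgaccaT
Rps10, chromosome 17: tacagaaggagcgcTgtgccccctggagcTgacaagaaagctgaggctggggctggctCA
Rps10-ps2, chromosome 16: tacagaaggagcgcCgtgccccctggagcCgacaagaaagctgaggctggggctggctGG

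Rpl23a itself had 174 TPM in replicate 2, against 1478 TPM in replicate 1, and 1139 TPM in replicate 2, against 5184 TPM in replicate 1 with its 20 copies. Rps10 had 1133 TPM in replicate 2, against 3641 TPM in replicate 1, and 3022 TPM in replicate 2, against 5350 TPM in replicate 1 with its 2 copies. Rps18 had 34.0 TPM in replicate 2, against 236 TPM in replicate 1, and 565 TPM in replicate 2, against 2083 TPM in replicate 1 with its copies, chiefly Gm10260, which is annotated as protein coding. With its 39 copies, Rps2 had 1875 TPM in replicate 2, against 2958 TPM in replicate 1. Among the low members, Rpl21 had 58.9 TPM with copies in replicate 2, against 545 TPM in replicate 1, and so averaged 302 TPM with copies and 36.0 TPM alone. Rpl26 averaged 257 TPM with copies and 85.0 TPM alone, and Rpl35a 150 TPM with copies and 75.3 TPM alone. Rps15a, Rpl37, Rpl22, Rpl9 and Rps27a, whose copies held few counts or none, had at most 109 TPM in either library with copies included. Of 77 standard genes, 19 had a mean under 100 TPM alone and 14 with copies. The standard deviation of log2(TPM + 1) over the 77 genes was 3.02 in replicate 2 and 2.58 in replicate 1 for the genes alone, and 3.05 in replicate 2 and 2.40 in replicate 1 with copies added, so the spread of levels was of the same size.

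**Figure D2:**
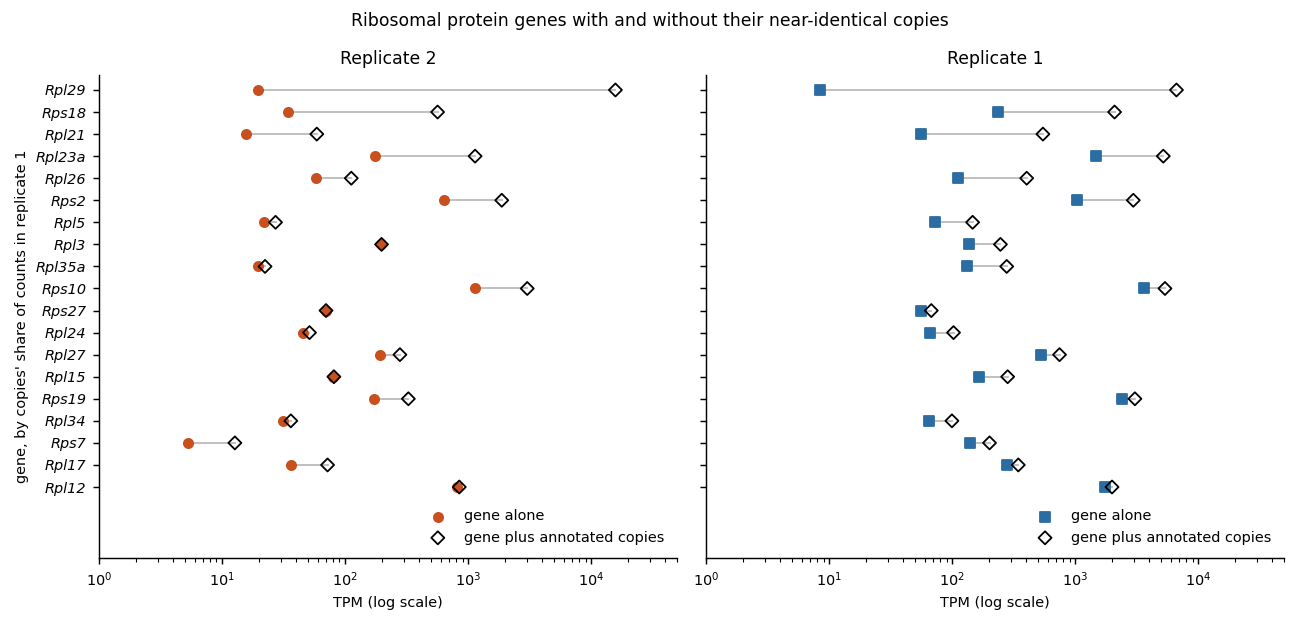
TPM (log axis) of the 19 standard genes whose copies held more than 10% of the family's counts in replicate 1, ordered by that share of counts, with replicate 2 on the left and replicate 1 on the right. Filled symbols are the gene alone and open diamonds the gene plus its annotated copies, and Rpl29 shows the widest gap, 19.6 against 15736 TPM in replicate 2 and 8.38 against 6634 TPM in replicate 1.

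The paralogs, some of which replace a standard protein in other tissues, were low except Rps27l. Rps27l, known as a p53 target, had 24.5 TPM in replicate 2, against 211 TPM in replicate 1, and its parent Rps27 had 70.0 TPM in replicate 2, against 55.3 TPM in replicate 1. The paralog thus made 25.9% of the pair in replicate 2, from 16 counts beside 14 counts, and 79.3% in replicate 1, from 3016 counts beside 260 counts. The order of the pair differs between the libraries in TPM, whereas Rps27l had more counts than Rps27 in both. Rps27 has a single transcript, of 255 bases in the deposited tables and 345 bases in GENCODE M21, so its counts are divided by a short length. Its copies held 30.3% of its family's counts in replicate 1.

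Rpl22l1, which in mice is held low by Rpl22, had 1.65 TPM in replicate 2 from 1 count and 11.1 TPM in replicate 1 from 159 counts. It made 12.2% of the pair with Rpl22 in replicate 1, and the 5 counts of the pair in replicate 2 give no usable share. Rpl7l1 had 1.09 TPM in replicate 2, against 4.53 TPM in replicate 1, or 3.84% of its pair with Rpl7 in replicate 2 and 2.99% in replicate 1. Rpl3l, the muscle paralog of Rpl3, was at 0 in replicate 2 and at 0.330 TPM (16 counts) in replicate 1. Rps4l, annotated as a pseudogene, was at 0 in replicate 2 and at 0.690 TPM (22 counts) in replicate 1. Rpl10l and Rpl39l, which stand in for Rpl10 and Rpl39 in the testis, had 0 counts in both libraries. In replicate 1 a count of 0 allows Rpl10l up to 0.0104% and Rpl39l up to 0.0565% of the counts of its pair. Of the other retrocopies, Rps12l1 had 4.42 TPM in replicate 2, against 7.26 TPM in replicate 1, and Rps3a2, Rps3a3 and Rpl6l were at 0 in replicate 2 and at 0.750 to 1.14 TPM in replicate 1.

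The transcripts to which the fragments were assigned were mostly protein coding. The 88 genes have 376 annotated transcripts in the deposited tables. Protein-coding transcripts took 73.3% of member TPM in replicate 2 and 80.0% in replicate 1, and retained-intron transcripts, which keep an intron and are not thought to give the protein, took 19.5% in replicate 2 and 12.2% in replicate 1. A further 6.07% in replicate 2 and 6.30% in replicate 1 lay in transcripts that GENCODE M21 no longer lists, chiefly of Rpl18 and Rpl13a. Of 58 genes with at least 2 transcripts and signal in both libraries, 38 had the same main transcript in both, that is, the one with the largest share of the gene's TPM. Over all 80 genes with signal in both libraries, the median of that share was 91.3% in replicate 2 and 91.6% in replicate 1. These include 22 genes with a single transcript, whose share is 100% by definition.

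In several of the highest genes, the main transcript differed between the libraries. Rpl41 was assigned 93.1% to the retained-intron transcript Rpl41-202 in replicate 2 and 0% in replicate 1, where the coding Rpl41-203 took 50.9%. Rplp2 was assigned 82.5% to the retained-intron Rplp2-206 in replicate 2 and 30.2% in replicate 1. Rps2 had 68.6% in the retained-intron Rps2-202 in replicate 2 and 14.1% in replicate 1. Rps19 went the other way, with 0% in replicate 2 and 91.0% in replicate 1 in the retained-intron Rps19-206. Other genes had a retained-intron transcript in front in both libraries: Rpl12-202 took 91.0% of Rpl12 in replicate 2 and 87.5% in replicate 1, and Rpl27a-204 took 80.8% of Rpl27a in replicate 2 and 74.0% in replicate 1. Rps20 was assigned to Rps20-203, of 3706 bases, at 100% in replicate 2 and 99.1% in replicate 1. Its 1637 counts in replicate 2 and 143615 counts in replicate 1 ranked 8 among the members by mean CPM, which are counts scaled to depth without length, and its 248 TPM in replicate 2, against 1034 TPM in replicate 1 ranked 35, since TPM divides by that length.

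**Figure D3:**
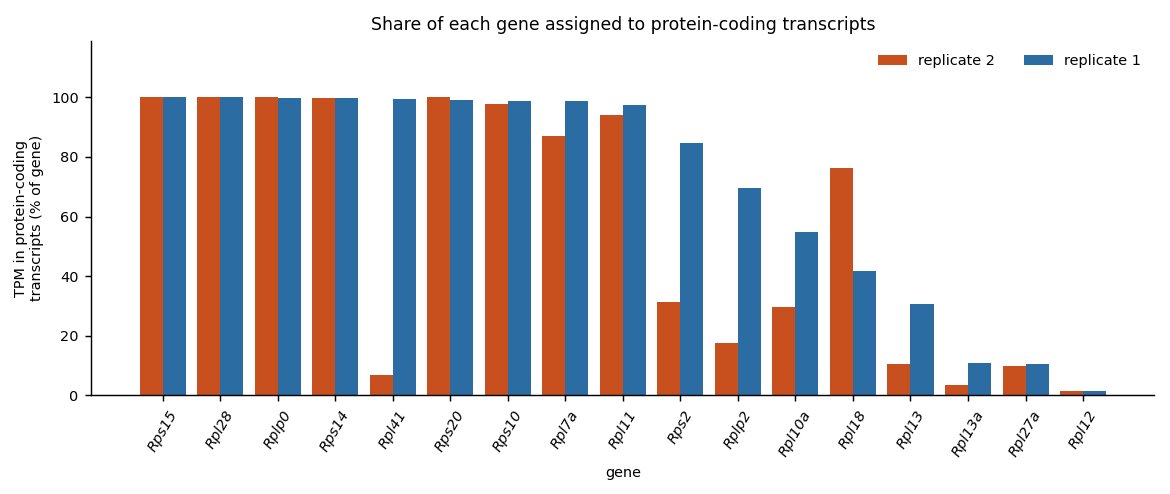
Share of each gene's TPM assigned to protein-coding transcripts (percent) in replicate 2 and replicate 1, for the 17 members with at least 2 transcripts and 500 counts in replicate 2. Rpl41, Rps2 and Rplp2 had low shares in replicate 2 (6.89%, 31.4% and 17.5%) and high ones in replicate 1 (99.5%, 84.7% and 69.5%), while Rpl12 and Rpl27a were low in both; transcripts not in GENCODE M21 (Rpl18, Rpl13a) count as not coding.

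Between the libraries, ribosomal protein transcripts were lower in replicate 2. Ratios were taken of expected counts, rounded and scaled with edgeR's TMM factors, for genes whose count averaged at least 100, which 79 members and 8194 genes in all passed. The filter was passed mainly through the deeper replicate 1. The 9 members under it were Rpl10l, Rpl22l1, Rpl39l, Rpl3l, Rpl6l, Rps12l1, Rps3a2, Rps3a3 and Rps4l. At least 2-fold lower in replicate 2 were 56 of the 79, and 33.8% of all genes tested. At least 2-fold higher were 2 of the 79, and 15.7% of all genes. The median log2 ratio of the members was -1.90, and that of all genes tested -0.30. Scaling by total counts moved the median of all genes to -0.74 and that of the members to -2.33, since a change of scale shifts every gene alike. The members' median minus that of all genes was -1.60 as reported, -1.70 with deposited TPM and -2.29 with the filter set to a mean of 50 CPM. With that filter, 40 of 58 members were at least 2-fold lower, beside 15.8% of 2576 genes, and 1 was at least 2-fold higher, beside 26.4%.

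Of the members with counts in both libraries, Rps7, a small subunit protein, had the smallest ratio, with 8.02 counts in replicate 2 and 4474 counts in replicate 1. It was 22.3-fold lower in replicate 2, with a ratio of 0.0448 (95% counting interval 0.0193 to 0.0884), and its posterior SD in replicate 2 was 21.8% of the count. Rps3a1 was 16.0-fold lower, from 23 counts in replicate 2 and 9250 counts in replicate 1, and Rpl22 13.8-fold lower, from 4 counts in replicate 2 and 1384 counts in replicate 1. Rps15a, with 0 counts in replicate 2 and 763 counts in replicate 1, cannot be placed in this order. Its counting interval reached up to a ratio of 0.121, and it was at least 10.1-fold lower if 3 counts are taken for replicate 2 as a floor. Rps21 was 10.1-fold lower, with 47 counts in replicate 2 and 11872 counts in replicate 1. The 2 members with most counts had ratios nearer to 1. Rplp1, with 5130 counts in replicate 2 and 347552 counts in replicate 1, was 2.70-fold lower (ratio 0.370, interval 0.360 to 0.380), and Rpl18, with 8165 counts in replicate 2 and 224497 counts in replicate 1, had a ratio of 0.912 (0.892 to 0.932).

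Few members were higher in replicate 2. Rpl29 had 21.3 counts in replicate 2 and 195 counts in replicate 1, a ratio of 2.70 (interval 1.63 to 4.24). Its copies moved with it, and the summed family had a log2 ratio of 1.44. Rps27 (1.35, interval 0.728 to 2.31), Rpl36 (1.23, interval 1.20 to 1.27), Rplp2 (1.18, interval 1.15 to 1.21) and Rpl3 (1.05, interval 0.933 to 1.17) also had ratios above 1. With total counts as the scale, these 4 lay below 1, at log2 ratios of -0.01, -0.14, -0.20 and -0.37. As a ratio of deposited TPM values, Rplp2 also lay below 1, at -0.54. With copies summed, the log2 ratio was -0.09 for Rps27, 0.30 for Rpl36, 0.23 for Rplp2 and -0.57 for Rpl3. The families of Rps27 and Rpl3 thus had ratios below 1.

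**Figure D4:**
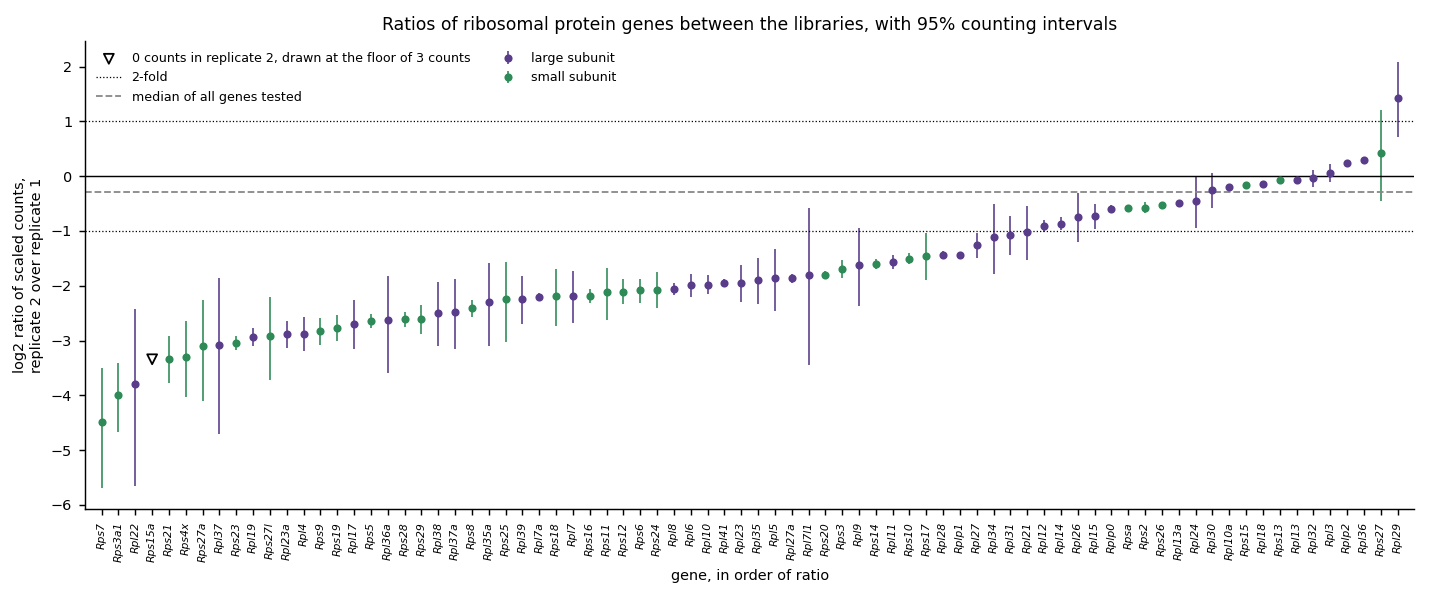
Log2 ratio of scaled counts, replicate 2 over replicate 1, of 78 of the 79 members with a mean count of at least 100, in order, with 95% counting intervals as bars. The dashed line is the median of all 8194 genes (-0.30), dotted lines mark 2-fold, 66 members lie under the dashed line, and Rps15a, with 0 counts in replicate 2, is drawn at the floor of 3 counts.

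Both subunits were lower, with medians of -1.50 in the large subunit (29 of 46 at least 2-fold lower, 2 at least 2-fold higher) and -2.18 in the small subunit (25 of 31 and 0). By role, the 3 exit tunnel genes had log2 ratios of -2.87 (Rpl4), -2.69 (Rpl17) and -2.24 (Rpl39). Rpl5 and Rpl11 had -1.87 and -1.57, and -2.50 and -1.58 with copies summed. Of the stalk, Rplp1 at -1.43 was at least 2-fold lower, Rpl12 at -0.91 and Rplp0 at -0.60 were not, and Rplp2 stood at 0.24. Of the 7 genes of the mRNA channel, Rps23, Rps3 and Rps14 were at least 2-fold lower, at -3.04, -1.69 and -1.60, and Rps15, Rps26, Rps2 and Rpsa were between -0.17 and -0.58. Of the Diamond-Blackfan genes, 15 of 20 were at least 2-fold lower and none at least 2-fold higher. Beside these counts, 56 of all 79 members and 33.8% of all genes tested were at least 2-fold lower. At least 2-fold higher were 2 of the 79 members and 15.7% of all genes tested.

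Genes of the same process were set beside them. Fau, which encodes a ubiquitin-like fusion with Rps30, had 3697 TPM in replicate 2, against 5776 TPM in replicate 1. Its log2 ratio was -0.41. Rpl36al had 7.07 TPM in replicate 2, against 61.8 TPM in replicate 1 and a log2 ratio of -2.38. Rack1, a scaffold on the small subunit, had 4597 TPM in replicate 2, against 2629 TPM in replicate 1, with a log2 ratio of 1.04. Of the ribosome biogenesis factors tested, 22 of 42 were at least 2-fold lower and 2 at least 2-fold higher, with a median of -1.15. Ncl, the nucleolar protein nucleolin, had 72.7 TPM in replicate 2, against 898 TPM in replicate 1. Eif6, which keeps the subunits apart, had 907 TPM in replicate 2, against 257 TPM in replicate 1. Of the translation factors, 19 of 38 were at least 2-fold lower and 4 at least 2-fold higher (median -0.97), and of the mitochondrial ribosomal proteins 31 of 67 and 7 (median -0.79). Of all genes tested, 33.8% were at least 2-fold lower and 15.7% at least 2-fold higher, with a median of -0.30. Summed over a list, scaled counts of replicate 2 over replicate 1 had a ratio of 1.15 for the translation factors, 0.995 for the mitochondrial ribosomal proteins and 0.580 for the biogenesis factors, beside 0.545 for the 88 cytosolic members. Markers of granulocytes and macrophages were also lower in replicate 2, and those of erythroid cells were not. All 7 granulocyte markers tested (median -2.68) and all 7 macrophage markers tested (median -3.36) were at least 2-fold lower. Of the 4 erythroid markers tested, 0 were at least 2-fold lower and 1 at least 2-fold higher (median 0.13). The part of these cell types in the members' ratios was not tested.

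Levels and ratios varied with base composition among the members. The GC content of the main coding transcript ran from 41.3% (Rps20) to 62.2% (Rplp0). It depends on the transcript chosen: the coding bases alone had 49.0% in Rps20 and 56.5% in Rplp0. That transcript can hold little of a gene's TPM, as in Rpl12, with 1.47% in replicate 2 and 1.43% in replicate 1. The Spearman correlation of this GC content with TPM over the 77 standard genes was 0.543 in replicate 2 and 0.453 in replicate 1. With the log2 ratio between the libraries it was 0.448. These are descriptions over genes that share the libraries. Coding length had a rho with TPM of 0.0606 in replicate 2 and 0.0349 in replicate 1. The 26 genes of lowest GC content (41.3% to 50.2%) had medians of 37.0 TPM in replicate 2, against 246 TPM in replicate 1. The 26 in the middle (50.5% to 54.3%) had 226 TPM in replicate 2, against 728 TPM in replicate 1, and the 25 of highest GC content (54.3% to 62.2%) 866 TPM in replicate 2, against 2930 TPM in replicate 1. A mean of 1000 TPM was reached by 3, 8 and 18 genes, from low to high GC content.

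In the ratios the group of lowest GC content stood apart from the other two. At least 2-fold lower in replicate 2 were 24 of 26 members in the lowest group (median log2 ratio -2.38), 15 of 26 in the middle (-1.32) and 15 of 25 in the highest (-1.43). Among all other genes tested whose main coding transcript had a GC content in these same ranges, 48.3% of 2504, 32.9% of 1753 and 19.7% of 2929 were at least 2-fold lower, with medians of -0.92, -0.36 and 0.17. The ratio thus moved with GC content over all genes as well (Spearman rho 0.323 over 7915 genes), and the members' median lay below that of the other genes in each range. Of the 62 standard members with a main coding transcript of at most 1000 bases, 45 were at least 2-fold lower, beside 40.9% of 1172 other genes that short. The part of GC content and of length in the difference between the libraries was not tested.

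**Figure D5:**
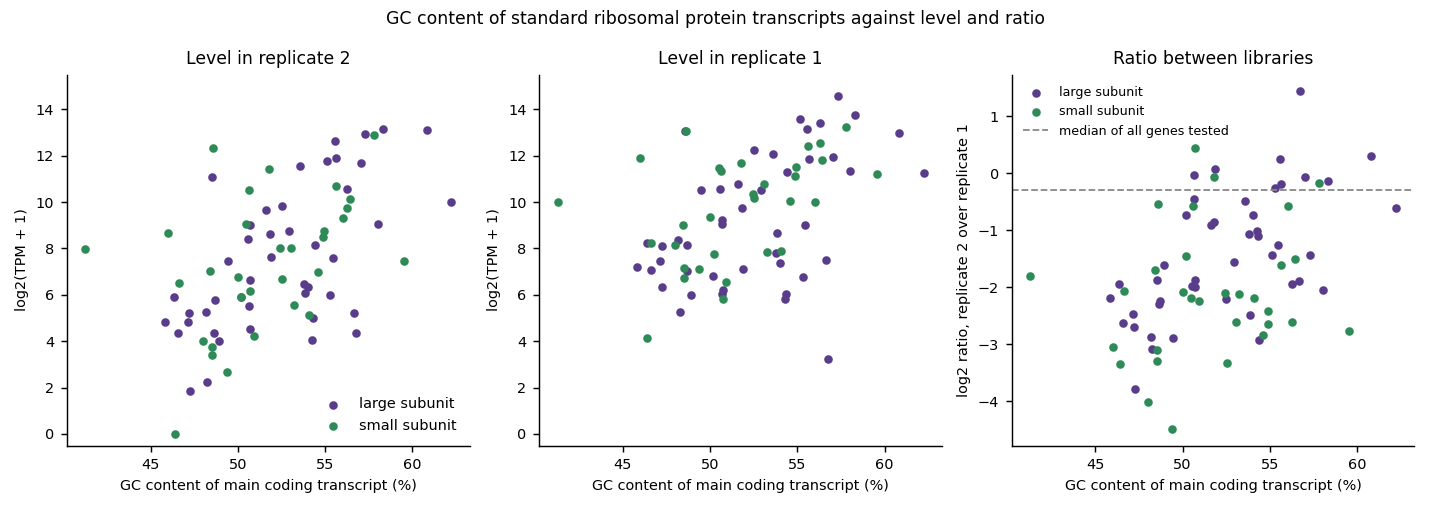
GC content of the main coding transcript (percent) of 76 of the 77 standard genes against log2(TPM + 1) in replicate 2 (left) and replicate 1 (middle), and against the log2 ratio of replicate 2 over replicate 1 (right), with large and small subunit genes in different colours. Transcripts of higher GC content had higher levels in both libraries (rho over all 77 genes of 0.543 in replicate 2 and 0.453 in replicate 1), and most ratios lie under the dashed median of all genes tested (-0.30).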

How the data were processed

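Per the labels, 2 libraries of polyadenylated megakaryocyte RNA form 1 group. Per the file headers, the deposited tables give for each gene and transcript an expected count (an estimated count of fragments that need not be whole), TPM and FPKM, with posterior means; FPKM was not used. The authors also deposited isoform percentages (percent of a gene per transcript) and, as a score of the quantifier, a posterior SD of the count and interval bounds. The deposited file lists give assembly mm10 and annotation GENCODE M4; the names of the aligner and quantifier were not given in the sources used here. Control rows without an Ensembl gene were left out. Symbols, positions, GC content and transcript types came from GENCODE M21 (GRCm38, the same assembly), matched by identifier.

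Expected counts were rounded and scaled with edgeR 4.0.16 TMM factors fitted on genes whose count averaged at least 10 (R 4.3.3). Ratios carry Clopper-Pearson 95% intervals conditional on the summed count, for counting error only; no p-value was computed. The calculation was tested on simulated data. Copies were found with blastn 2.17.0. Genes that overlap a member on its strand (Gm45713 with Rpl13a, Gm28037 with Rpl24) were not counted as copies. Alternatives were DESeq2 1.42.0 size factors, total counts, deposited TPM, posterior means, other filters and each library alone.

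Members, lists and the rule for named genes were chosen with earlier results of these data known. Full values go to the 10 highest and 10 lowest members by mean TPM, the 5 largest and 5 smallest ratios, the paralogs, and the genes of the stalk, 5S particle, exit tunnel, mRNA channel and Diamond-Blackfan lists. Rps19, Rps20, Rps2, Rps10, Rps18, Rpl23a and the other genes of the passages on copies and transcripts were named after their values were seen where no list holds them. A few genes are not reported here by name or drawn; counts and medians over members and lists include them.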

Additional observations from a re-analysis of the deposited data

How the results depend on the processing

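No paired analysis was possible because the series has 1 group, whose 2 libraries are the only samples. Leaving out a library gave no ratio, since each side has 1. Each library alone, which is the same as leaving out the other, gave a summed TPM of 84008.8 to 189905.8, 80 to 83 members at 1 TPM, 18 to 37 members at 1000 TPM (29 by the mean), 4310 to 6295 TPM in -ps pseudogenes and a median main transcript share of 91.3% to 91.6%. As CPM in place of TPM, the summed level was 57407.4, against 136957 TPM. With posterior means, the median main transcript share over 80 genes, single-transcript genes included, was 88.5%, against 91.5%. The median log2 ratio of -1.90 became -2.33 with total counts and -2.06 with deposited TPM. Members at least 2-fold higher in replicate 2 numbered 2 of 79, beside 15.7% of all genes tested. With total counts there were 0 of 79, beside 7.30%, since that scale moves every log2 ratio down alike. With deposited TPM there was 1 of 78, beside 13.6%. At a mean of at least 50 CPM, where fewer members were tested, there was 1 of 58, beside 26.4%. The cause was not tested for the other changes. Members at least 2-fold lower ran from 40 of 58 at a mean of at least 50 CPM to 63 of 79 with total counts, where 15.8% and 43.5% of all genes tested were. With member and copies summed, an alternative chosen after seeing the data, the median was -1.94. At least 2-fold lower were then 58 of 79 members, beside 33.8% of all genes tested. Of the single ratios, 50 of 79 with total counts and 43 of 78 with deposited TPM lay outside their counting interval. Levels under 10 counts in replicate 2 (Rpl22, Rpl37, Rps7, Rps15a and most paralogs) are limited by its depth.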
